A study of Mus musculus with 46 samples.

Results

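Trem2, Tyrobp, Apoe, Hcst, Syk, Plcg2 and Inpp5d, 7 genes of the TREM2 pathway of microglia, were followed by name in a table of raw counts for 54134 genes. The libraries were microglia, the resident macrophages of the brain, of AD mice (24 libraries) and wild-type (WT) mice (22 libraries). The AD mice carried 5xFAD, a model of Alzheimer's disease in which, as background, the transgenes are driven by the Thy1 promoter in neurons. Each genotype was fed HAMSAB (a resistant maize starch that carries acetate and butyrate), a diet with zero fiber, or a control diet. This made 6 groups of 8 libraries, or 6 for zero-fiber WT, with females (F) and males (M) in each. The labels give no age, no time on the diet and no isolation method, and do not say that libraries came from separate mice, so a p-value measures only how libraries of a group vary.

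TREM2 is a lipid-sensing receptor on the microglial surface, and apolipoprotein E, the product of Apoe, is one of its ligands. The receptor has no signalling domain of its own. It pairs with TYROBP (also called DAP12), whose phosphorylated tail binds the kinase SYK, and with HCST (also called DAP10), which recruits PI3-kinase. Downstream, PLCG2 cleaves membrane phosphoinositides into second messengers, while INPP5D (also called SHIP1) removes a phosphate from the PI3-kinase product and so opposes the signal. In mice with amyloid, Trem2 is needed for microglia to reach the full disease-associated state. Apoe is typically raised in such microglia.

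In GRCm38 (GENCODE M21), Trem2 lies at chr17:48346401-48354147 on the plus strand, Syk at chr13:52583173-52648792 on the plus strand and Inpp5d at chr1:87620312-87720507 on the plus strand. Plcg2 spans chr8:117498291-117635142 on the plus strand, where the gene Gm27361 overlaps it on the minus strand. The other 3 genes are on chromosome 7. Apoe lies at chr7:19696109-19699188 on the minus strand. Tyrobp (chr7:30413760-30417585, plus strand) and Hcst (chr7:30417712-30419854, minus strand) run towards each other with 126 bases between their ends. The strand setting of the counting is not given in the sources used here, and overlap was taken over whole gene spans, not exons. Whether reads of the antisense neighbour enter the Plcg2 counts is therefore not known.

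The promoter windows of 3 genes are shown because the results turn on them: Syk carried the diet difference, and Trem2 and Inpp5d varied in opposite directions. Each window runs from 250 bases before to 50 bases after the start of transcription (RefSeq, GRCm38.p6). At least 1 window was at hand for 6 of the 7 genes, all but Tyrobp. Capitals mark a match to GAGGAAGT, 1 form of the site bound by the macrophage factor PU.1, searched on both strands. The windows are Syk chr13:52583187-52583486, Trem2 chr17:48346151-48346450 and Inpp5d chr1:87620062-87620361, all on the plus strand. Syk had another window, chr13:52596632-52596931, which held no match and is not shown.
Syk: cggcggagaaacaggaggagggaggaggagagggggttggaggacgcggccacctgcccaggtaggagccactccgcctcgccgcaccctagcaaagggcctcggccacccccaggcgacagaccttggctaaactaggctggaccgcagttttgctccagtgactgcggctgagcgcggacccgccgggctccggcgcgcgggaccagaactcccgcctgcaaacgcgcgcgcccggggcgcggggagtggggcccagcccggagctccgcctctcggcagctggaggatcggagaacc
Trem2: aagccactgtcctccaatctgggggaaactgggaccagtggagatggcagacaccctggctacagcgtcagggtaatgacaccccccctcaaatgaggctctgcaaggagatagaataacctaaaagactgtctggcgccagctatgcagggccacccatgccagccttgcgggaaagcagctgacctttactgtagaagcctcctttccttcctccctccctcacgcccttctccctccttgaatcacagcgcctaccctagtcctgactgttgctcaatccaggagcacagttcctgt
Inpp5d: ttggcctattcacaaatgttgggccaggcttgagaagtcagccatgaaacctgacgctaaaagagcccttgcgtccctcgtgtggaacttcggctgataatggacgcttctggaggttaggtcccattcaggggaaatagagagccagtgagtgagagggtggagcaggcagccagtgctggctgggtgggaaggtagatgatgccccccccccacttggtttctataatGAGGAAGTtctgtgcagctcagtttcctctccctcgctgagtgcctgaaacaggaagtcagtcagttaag
Only the Inpp5d window held this form of the PU.1 site among the windows of the 6 genes, and 3.202% of 32851 mouse promoter windows held it. Other forms of the site were not searched. GTCACGTG, the core bound by the lysosomal regulator TFEB, had 1 match, in the window of Plcg2, and was in 2.247% of all windows. A match describes letters only.

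Total counts were 1174514 to 6950429 in 44 libraries, and 783849 and 52114 in zero_fiber_AD_M replicates 1 and 2. Replicate 2 had 3 Hcst counts, 8 Plcg2 counts and 15 Syk counts, and gave the lowest Trem2 and Tyrobp and the highest Syk level of the series. The microglial label was met by all 12 markers on its list, whose summed level was 26980 to 44570 CPM (counts scaled to the size of the library). The summed level of 9 T and NK cell markers, the cells in which HCST is best known, was at most 1.76 CPM, and the NK marker Ncr1 was at 0 throughout. Xist, an RNA of the inactive X chromosome, stood at 0.213 CPM in zero_fiber_AD_F replicate 1, against 653.5 to 1155 CPM in the other 23 libraries labelled F. Its Ddx3y level of 141.7 CPM was inside the range of libraries labelled M. That library and zero_fiber_AD_M replicate 2 were left out together in 1 of the alternatives.

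All 7 genes passed the filter on low counts. On a scale corrected for transcript length (CPM per kilobase of the principal transcript), the adaptor Tyrobp was highest, at 3013 ± 406 (SD over 46 libraries), which ranked 12 of 12005 tested genes with a length. Trem2 itself followed at 1618 ± 308 (rank 30) and Apoe at 1197 ± 455 (rank 37). The phosphatase gene Inpp5d stood at 146 ± 14.3, the adaptor Hcst at 86.9 ± 17.5, the phospholipase gene Plcg2 at 35.1 ± 4.01 and the kinase gene Syk at 29.2 ± 5.28. Tyrobp was above Trem2 in 46 of 46 libraries, and the median ratio of Tyrobp to Hcst, the 2 adaptors, was 34.9. Trem2 was above Apoe in 40 of 46 libraries and Plcg2 above Syk in 42 of 46, so these neighbours in the order overlapped. The remaining neighbours kept their order in 46 of 46 libraries.

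**Figure D1:**
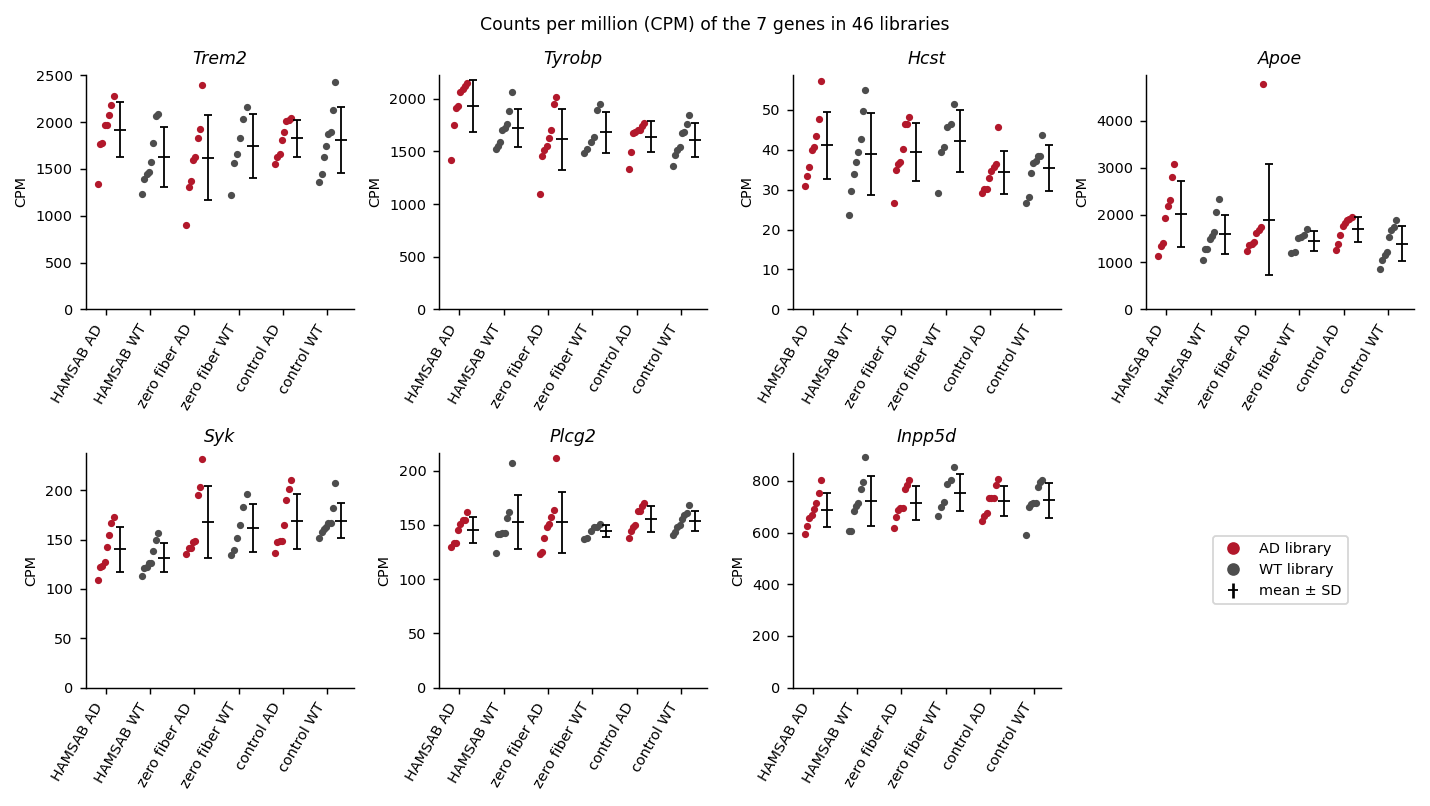
CPM of the 7 genes in every library, by diet and genotype, with red points for AD and grey points for WT libraries and bars for mean ± SD. Syk lies lower in the HAMSAB groups (135.9 CPM on average) than in the control groups (168.9 CPM), and 1 zero-fiber AD library stands far above the rest for Apoe (4772 CPM).

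In the genotype comparisons none of the 7 genes passed the threshold, an adjusted p under 0.05 in edgeR's quasi-likelihood test over 12121 genes. Averaged over the diets, 0 of the 7 were called in AD over WT, where 0.0165% of all genes were called. DESeq2 and limma voom also called 0, and 1 gene had an unadjusted p under 0.05 by each of the 3 tools, Apoe by edgeR (7.0% of all genes). The median log2 fold change of the 7 was 0.03, against 0.00 for all genes.

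Apoe, the secreted lipid carrier, had the largest genotype difference of the 7. It ran from 1137 CPM through a median of 1712 CPM to 4772 CPM in AD libraries, and from 852.1 through 1525 to 2332 CPM in WT libraries. The groups overlapped, with 15 of 24 AD libraries above the WT median. The log2 fold change was 0.34 ± 0.13 (SE; edgeR 95% interval 0.07 to 0.61, adjusted p = 0.666). It was 0.36 on HAMSAB, 0.39 on zero fiber and 0.28 on control, with intervals that each held 0. The zero-fiber value was 0.08 without zero_fiber_AD_M replicate 4, the library at 4772 CPM, and the average over diets was then 0.24. Title numbers below 2900 (lower series), or 2900 and above (higher series), are a possible batch. With the libraries of the diets pooled, AD over WT was 0.26 in the lower series (n = 13 AD and 10 WT). In the higher series it was 0.23 (n = 10 AD and 12 WT). On HAMSAB alone it was 0.28 in the lower series (n = 5 AD and 5 WT) and -0.08 in the higher (n = 2 AD and 3 WT). On control alone it was 1.12 in the lower series (n = 4 AD and 1 WT) and 0.08 in the higher (n = 4 AD and 7 WT). On zero fiber alone it was -0.01 in the lower series (n = 4 AD and 4 WT) and 0.55 in the higher (n = 4 AD and 2 WT).

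Trem2, the receptor, ran from 896.2 CPM through a median of 1820 to 2402 CPM in AD libraries, and from 1225 through 1702 to 2432 CPM in WT libraries. The AD over WT difference averaged over diets was 0.07 ± 0.08 on the log2 scale (interval -0.08 to 0.22, edgeR adjusted p = 0.903). On HAMSAB it was 0.25 ± 0.13 (interval -0.01 to 0.50, adjusted p = 0.445), with 1920 ± 296 CPM in AD and 1630 ± 318 CPM in WT libraries (SD, n = 8 each) and 7 of 8 AD libraries above the WT median. On zero fiber it was -0.06 and on control 0.02.

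The adaptors and the downstream genes differed between genotypes by less than the spread between libraries. Tyrobp averaged 1727 ± 268 CPM in AD and 1668 ± 178 CPM in WT libraries, a log2 difference of 0.07 (interval -0.05 to 0.18). Hcst averaged 38.3 ± 7.44 and Syk 158.9 ± 31.5 CPM in AD libraries, against 38.5 ± 8.22 and 153.6 ± 24.8 CPM in WT libraries. Plcg2 averaged 151.1 ± 18.6 CPM in AD and 150.5 ± 16.1 CPM in WT libraries, and its interval of -0.08 to 0.13 was among the narrowest. Inpp5d averaged 707.5 ± 62.4 CPM in AD and 731.3 ± 78.1 CPM in WT libraries (interval -0.16 to 0.04). Within single diets 0 of the 7 genes were called in AD over WT, on HAMSAB (1.16% of all genes called), on zero fiber (0.00825%) or on control (0.0%). DESeq2 and voom called 0 there too. At an unadjusted p under 0.05, edgeR and DESeq2 gave 0 of the 7 on HAMSAB (11.8% of all genes by edgeR), on zero fiber (4.41%) and on control (5.02%), and voom gave 2, 0 and 0.

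**Figure D2:**
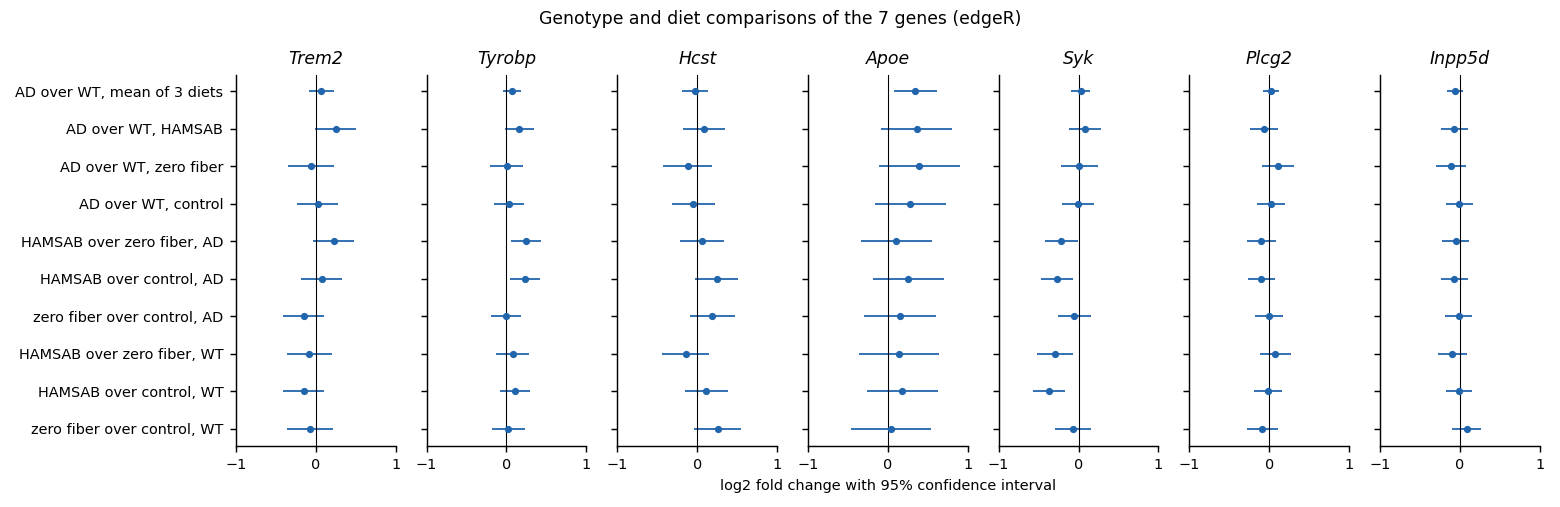
Log2 fold changes of the 7 genes in the genotype comparisons (top 4) and the diet comparisons in AD and WT mice, with points for edgeR estimates and lines for 95% confidence intervals. The Syk intervals lie below 0 in the 4 comparisons of HAMSAB with another diet, and the Tyrobp intervals lie above 0 in the 2 of them made in AD mice. The Apoe point is above 0 in all 10 with every library. Zero fiber over control in AD mice is -0.17 without zero_fiber_AD_M replicate 4. Leaving out 1 library also took Apoe as low as -0.05 for HAMSAB over zero fiber in AD mice. For zero fiber over control in WT mice it went as low as -0.04, and elsewhere it stayed above 0.

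Syk, the kinase that binds the TYROBP tail, was lower on HAMSAB, and was the gene of the 7 called in a diet comparison. In AD mice, Syk was 109.5 to 173.4 CPM (median 134.8) on HAMSAB, 135.9 to 231.8 CPM (median 147.9) on zero fiber and 136.7 to 210.1 CPM (median 156.7) on control. In WT mice, it was 113.5 to 156.3 CPM (median 126.4) on HAMSAB, 134.7 to 196.4 CPM (median 158.2) on zero fiber and 151.4 to 207.2 CPM (median 164.5) on control. The groups overlapped in both genotypes, and in WT mice 8 of 8 HAMSAB libraries were below the zero-fiber median. Averaged over AD and WT, a comparison added after the data were seen, Syk fell by 0.32 ± 0.07 on the log2 scale in HAMSAB over control (interval -0.46 to -0.18, edgeR adjusted p = 0.00729). That is 0.801-fold, with 135.9 ± 19.2 CPM on HAMSAB and 168.9 ± 22.7 CPM on control (SD, n = 16 each) and 14 of 16 HAMSAB libraries below the control median. This was 1 of the 7 genes called, where 4.43% of all genes were called, and DESeq2 and voom also called 1.

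Taken by genotype, the Syk difference did not pass the threshold. HAMSAB over control gave -0.37 ± 0.10 in WT mice (edgeR adjusted p = 0.0903) and -0.27 ± 0.10 in AD mice (adjusted p = 0.178). The 2 differed by 0.09 (interval -0.19 to 0.38), and this difference of AD minus WT was not called. Without HAMSAB_WT_M replicate 4 the WT value was -0.40 with an adjusted p of 0.0428. HAMSAB over zero fiber gave -0.30 ± 0.11 in WT mice (adjusted p = 0.210) and -0.22 ± 0.10 in AD mice (adjusted p = 0.451), and -0.26 ± 0.08 averaged over both genotypes (adjusted p = 0.0924). Without zero_fiber_AD_M replicate 3 that average was -0.30, and passed the threshold. Zero fiber over control was -0.06 ± 0.08 averaged over both genotypes. These comparisons share their HAMSAB or control libraries. Within the title series, with genotypes pooled, HAMSAB over control was -0.34 below 2900 (n = 10 and 5) and -0.28 at 2900 or above (n = 5 and 11). Of the 5 control libraries below 2900, 1 was WT. HAMSAB over zero fiber below 2900 was -0.40 in WT mice (n = 5 and 4) and -0.29 in AD mice (n = 5 and 4). At 2900 or above it was -0.07 in WT mice (n = 3 and 2) and -0.21 in AD mice (n = 2 and 4). These values within the series were not tested.

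Markers of perivascular macrophages, which neighbour microglia along brain vessels, moved with Syk. The summed level of the 9 markers on that list, with 0 of 9 at 0, was 170.0 to 258.7 CPM on HAMSAB, 183.5 to 463.5 CPM with zero fiber and 161.0 to 407.3 CPM on control. Over 45 libraries, each taken as its deviation from the mean of its diet, genotype and sex group, Syk and this sum had a Pearson r of 0.596 and a Spearman rho of 0.594 (permutation test, adjusted p = 0.0159 and 0.0157 over 77 relations), and r was 0.546 without the 2 libraries farthest out. In WT mice the sums were 240.6 ± 21.4 CPM on HAMSAB and 237.4 ± 51.99 CPM on control, while Syk averaged 131.8 ± 14.8 and 169.3 ± 17.7 CPM there. In AD mice they were 198.3 ± 23.5 CPM on HAMSAB and 294.9 ± 91.6 CPM on control. The slope of each library's expression on transcript length moved with Syk too (r = 0.573, rho = 0.607, permutation adjusted p = 0.0200 and 0.00654), and was -0.018 ± 0.040 on HAMSAB and 0.017 ± 0.027 on control. With that length trend removed, Syk was -0.29 with an adjusted p of 0.0218. The part of the macrophage markers in the Syk difference was not tested, and in bulk RNA fewer cells of a type and less RNA per cell cannot be told apart.

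**Figure D3:**
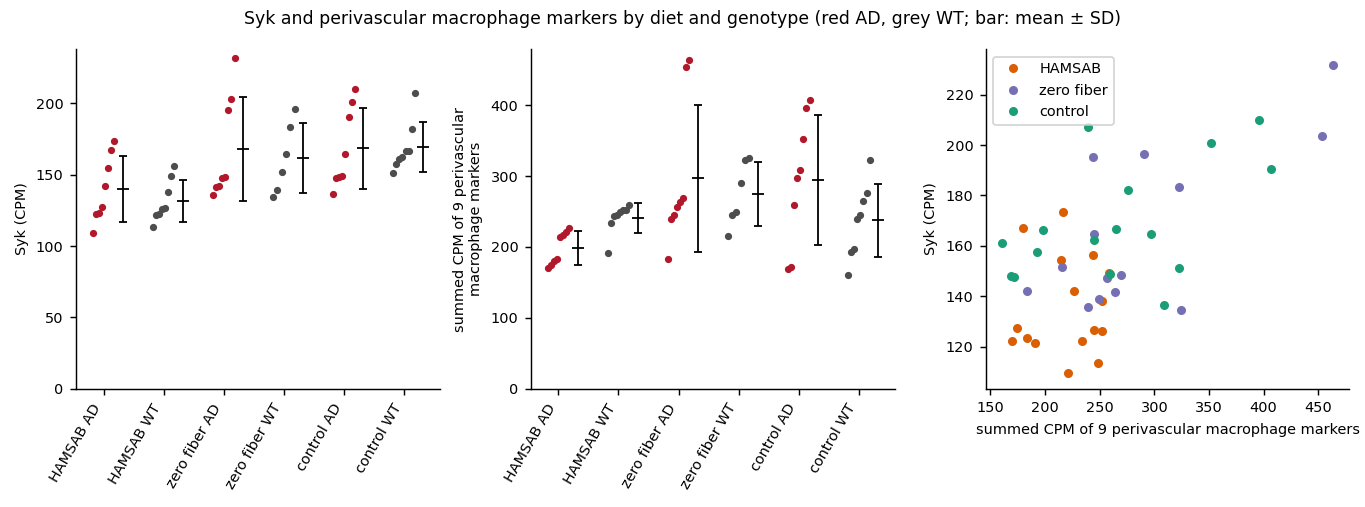
Syk (left) and the summed level of 9 perivascular macrophage markers (middle), in CPM by diet and genotype with bars for mean ± SD, and the 2 against each other for 46 libraries coloured by diet (right). The WT groups on HAMSAB and control have like marker sums (240.6 and 237.4 CPM) and differ in Syk (131.8 and 169.3 CPM). The AD groups on these diets differ in both, with marker sums of 198.3 and 294.9 CPM and Syk at 140.0 and 168.4 CPM.

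Tyrobp, the adaptor that SYK binds, was higher on HAMSAB in AD mice without passing the threshold. It ran from 1420 CPM through a median of 1998 to 2152 CPM on HAMSAB, from 1097 through 1587 to 2019 CPM with zero fiber and from 1337 through 1692 to 1765 CPM on control, with 7 of 8 HAMSAB libraries above the median of each other diet. The log2 difference was 0.24 ± 0.09 over zero fiber (edgeR adjusted p = 0.317) and 0.24 ± 0.09 over control (adjusted p = 0.208). With the length trend removed these were 0.07 and 0.10. In WT mice the difference was 0.08 ± 0.10 over zero fiber and 0.10 ± 0.09 over control. Averaged over genotypes, HAMSAB over control was 0.17 ± 0.07 (edgeR adjusted p = 0.113). With a term for the title series it was 0.24 (adjusted p = 0.0323). That fit also left out HAMSAB_AD_F replicate 4, which is in neither series. Of the rest, 10 HAMSAB and 5 control libraries were in the lower series, and 5 and 11 in the higher. Without the term, leaving out 1 library at a time gave 0.15 to 0.20, called in 0 of 46 fits. With the length trend removed, HAMSAB over control averaged over genotypes was 0.08. Tyrobp's deviations had an r of -0.588 with the length slope (rho = -0.560, permutation adjusted p = 0.0159 and 0.0258).

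The other 5 genes were not called in any diet comparison. Trem2 in AD mice was 1920 ± 296 CPM on HAMSAB, 1620 ± 453 CPM with zero fiber and 1827 ± 196 CPM on control. Trem2 in WT mice was 1630 ± 318 CPM on HAMSAB, 1746 ± 340 CPM with zero fiber and 1814 ± 353 CPM on control. The order of these means was not the same in the 2 genotypes, but the groups overlapped. The zero-fiber AD mean held the library of 52114 counts, at 896.2 CPM. The HAMSAB over zero-fiber difference in AD minus that in WT was 0.30 ± 0.19 (interval -0.08 to 0.69, edgeR adjusted p = 0.705). It was 0.14 to 0.35 over the other processing settings. Trem2 in HAMSAB over zero fiber in AD mice was 0.46 in the lower title series (n = 5 and 4). In the higher it was -0.01 (n = 2 and 4), and these values were not tested. Apoe averaged 2024 ± 705 CPM on HAMSAB, 1903 ± 1172 CPM with zero fiber and 1694 ± 264 CPM on control in AD mice, and 1586 ± 423, 1456 ± 209 and 1391 ± 376 CPM on the same diets in WT mice. The zero-fiber mean in AD mice held the library at 4772 CPM. By medians the AD groups stood at 2061 CPM on HAMSAB, 1519 CPM with zero fiber and 1790 CPM on control, with 1 of 8 zero-fiber libraries above the control median. Zero fiber over control in AD mice was 0.15 with that library and -0.17 without it. HAMSAB over zero fiber in AD mice was 0.42 without it, -0.06 with the title series term and -0.05 with the length trend removed. In WT mice, zero fiber over control was -0.04 without control_WT_F replicate 1. The Apoe intervals were the widest, at -0.10 to 0.53 for HAMSAB over control averaged over genotypes. Hcst was 39.98 ± 9.15 CPM on HAMSAB, 40.7 ± 7.32 CPM with zero fiber and 34.9 ± 5.37 CPM on control over both genotypes. Zero fiber over control gave Hcst 0.22 ± 0.10 (edgeR adjusted p = 0.332), and 0.13 with the length trend removed. Hcst deviations had an r of -0.536 with the length slope (rho = -0.521, permutation adjusted p = 0.0211 and 0.0263 over 77 relations). Plcg2 was 148.8 ± 19.2 CPM on HAMSAB, 149.0 ± 21.3 CPM with zero fiber and 154.4 ± 10.4 CPM on control. Inpp5d was 703.9 ± 82.3 CPM on HAMSAB, 731.0 ± 68.5 CPM with zero fiber and 723.2 ± 60.9 CPM on control.

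In the counts by comparison, 0 of the 7 genes were called in each of the 6 diet comparisons made within a genotype, by edgeR, DESeq2 or voom. The shares of all genes called there by edgeR were 0.182% for HAMSAB over zero fiber, 0.107% for HAMSAB over control and 0.0% for zero fiber over control in AD mice. In WT mice they were 1.34% for HAMSAB over zero fiber, 0.239% for HAMSAB over control and 0.00825% for zero fiber over control. At an unadjusted p under 0.05, edgeR gave 2 of the 7 for HAMSAB over zero fiber in AD mice (10.4% of all genes), 2 for HAMSAB over control (15.1%) and 0 for zero fiber over control (10.7%). In WT mice it gave 1 of the 7 for HAMSAB over zero fiber (11.7%), 1 for HAMSAB over control (13%) and 0 for zero fiber over control (7.33%). DESeq2 gave these counts too, and so did voom except for 3 of the 7 for HAMSAB over control in AD mice.

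The averages over genotypes called 0 of the 7 for HAMSAB over zero fiber (0.916% of all genes called) and for zero fiber over control (0.446%), by edgeR, DESeq2 and voom. At an unadjusted p under 0.05, edgeR and DESeq2 gave 2 of the 7 for HAMSAB over zero fiber (13.1% of all genes by edgeR), 2 for HAMSAB over control (21.8%) and 1 for zero fiber over control (12.8%). The counts by voom were 2, 2 and 0. The tests of AD minus WT called 0 of the 7 for HAMSAB over zero fiber (0.677% of all genes called), HAMSAB over control (0.0%) and zero fiber over control (0.0%). At an unadjusted p under 0.05 they gave 0 of the 7 by edgeR, DESeq2 and voom, where edgeR gave 9.26%, 5.34% and 6.0% of all genes in the same order.

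Sex was compared within each genotype over the 3 diets. In AD mice 0 of the 7 genes were called in F over M by edgeR, DESeq2 or voom (0.0578% of all genes called by edgeR), and 1 had an unadjusted p under 0.05 by each tool (6.79% of all genes by edgeR). That gene was Syk in edgeR, with 146.8 ± 27.8 CPM in F and 171.0 ± 31.4 CPM in M libraries (n = 12 each), a log2 difference of -0.20 ± 0.08 (edgeR adjusted p = 0.638). These libraries are taken by their labels, so F holds zero_fiber_AD_F replicate 1, whose sex genes go against its label, and M holds the library of 52114 counts. Without those 2 libraries the difference was -0.18 ± 0.09 (adjusted p = 0.664). Sex and title series were unevenly mixed in AD mice, with 4 F and 9 M libraries in the lower series and 7 F and 3 M in the higher. F over M there was -0.26 in the lower series and -0.12 in the higher for Syk. For Trem2 it was 0.11 and -0.29, and for Apoe -0.01 and -0.45, in the same order. These values were not tested. In WT mice 0 were called (0.0743%), and the largest difference was in Trem2, at 1608 ± 309 CPM in F (n = 12) and 1873 ± 310 CPM in M libraries (n = 10), or -0.19 ± 0.11 (edgeR adjusted p = 0.804). Within the title series, Trem2 in WT mice was -0.255 in the lower (n = 5 F and 5 M) and -0.246 in the higher (n = 7 F and 5 M). The difference between the sexes in AD minus WT also called 0 (0.0%). In the last 2 comparisons DESeq2 and voom called 0, and the 3 tools had 0 of the 7 at an unadjusted p under 0.05 (6.81% and 3.24% of all genes by edgeR).

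Of 124 other genes of the pathway, set out in 6 lists by role, 98 passed the filter. Of the receptor's partners and family, 8 of 20 were tested. In HAMSAB over control averaged over genotypes (2.18% of all genes called higher and 2.25% lower), 0 of these 8 were called by edgeR, DESeq2 or voom, and 3, 1 and 3 of them had an unadjusted p under 0.05 by those tools in that order (21.8% of all genes by edgeR). In the same comparison, 1 of 18 tested early kinases and adaptors rose and 2 fell. Fgr, a Src-family kinase, was 4.66 ± 2.09 CPM on HAMSAB and 2.16 ± 1.11 CPM on control, a log2 rise of 1.08 ± 0.25 (edgeR adjusted p = 0.0104). Cbl, a ubiquitin ligase that acts on SYK, was 243.9 ± 27.5 CPM on HAMSAB and 313.0 ± 59.6 CPM on control, a fall of 0.36 ± 0.07 on the log2 scale (adjusted p = 0.00518). Sos1, an activator of Ras, fell by 0.37 ± 0.11 on that scale (adjusted p = 0.0383). The median of the 18 was -0.10, against 0.00 for all genes. In zero fiber over control averaged over genotypes it was also -0.10, against -0.01 for all genes. In HAMSAB over zero fiber it was 0.03, against 0.01, so the lower median was not particular to HAMSAB. Of 28 tested genes for PI3-kinase, phospholipase and later steps, 0 were called there by edgeR or DESeq2 and 1 by voom, with 8, 8 and 9 of the 28 at an unadjusted p under 0.05, against the same 21.8% of all genes. Of 15 tested inhibitory receptors and phosphatases, 1 fell, Sirpa, by 0.20 ± 0.06 (adjusted p = 0.0463). Of 12 tested genes for APOE receptors and lipid export, 1 fell, the nuclear receptor gene Rxra, by 0.31 ± 0.10 (adjusted p = 0.0498), named here after its value was seen. Leaving out 1 library at a time, 0 to 1 of the partners rose, 0 to 2 of the PI3-kinase list fell, 1 of the early kinases and adaptors rose and 1 to 2 fell, 0 to 2 of the inhibitory genes fell and 0 to 1 of the APOE receptor genes fell. Fgr and Cbl were called in 46 of 46 such fits, Sos1 in 29, Sirpa in 22 and Rxra in 15.

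Within WT mice, HAMSAB over zero fiber called 1 of the 15 inhibitory genes and 1 of the 12 APOE receptor genes, where 1.34% of all genes were called. Ubash3b, a phosphatase that acts on SYK-family kinases, was 481.0 ± 157.7 CPM on HAMSAB and 268.1 ± 47.5 CPM on zero fiber, a rise of 0.86 ± 0.16 (edgeR adjusted p = 0.00666). Its difference of HAMSAB over zero fiber in AD minus that in WT was -0.996 ± 0.219 (adjusted p = 0.0212), in a comparison that called 0.677% of all genes. Sorl1, a sorting receptor that binds APP and APOE, was 22.8 ± 5.16 CPM on HAMSAB and 36.1 ± 12.8 CPM on zero fiber, a fall of 0.76 ± 0.20 on the log2 scale (adjusted p = 0.0422). Cbl fell in WT mice by 0.51 ± 0.10 on HAMSAB over control (adjusted p = 0.0223), where 0.239% of all genes were called. Ubash3b, Sorl1 and Cbl lie on 1 chromosome, at chr9:41011098-41161697, chr9:41964720-42124297 and chr9:44142976-44234049 in that order. Whether their position has a part in these calls was not tested. Averaged over genotypes, Ptpn6 (SHP-1), a phosphatase recruited by inhibitory receptors, was 345.8 ± 35.3 CPM with zero fiber and 417.6 ± 64.3 CPM on control, a fall of 0.29 ± 0.07 (adjusted p = 0.0298), where 0.446% of all genes were called. Each of these calls was lost in at least 1 of the 46 fits that left out 1 library. Ubash3b was called in 45 of them in WT mice, the exception being zero_fiber_WT_M replicate 2, and in 44 for AD minus WT, the exceptions being that library and zero_fiber_AD_M replicate 3. Sorl1 was called in 33, Cbl in WT mice in 40 and Ptpn6 in 37. The genes called among all genes for HAMSAB over zero fiber in WT mice were 2 to 286 over these fits, against 162 with every library, and the 2 was without zero_fiber_WT_M replicate 2.

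Of 17 tested disease-associated genes that depend on Trem2 in mice, some rose on HAMSAB while Trem2 itself was not called. In HAMSAB over zero fiber averaged over genotypes, 6 of 17 rose and 0 fell, where 0.520% of all genes were called higher and 0.396% lower, and their median log2 fold change was 0.30 against 0.01 for all genes. Itgax, the integrin CD11c, was 9.28 ± 2.67 CPM on HAMSAB and 2.96 ± 2.64 CPM on zero fiber, a rise of 1.80 ± 0.26 (edgeR adjusted p = 2.7e-05). Axl, a receptor for dying cells, was 41.03 ± 20.8 CPM on HAMSAB and 17.8 ± 6.56 CPM on zero fiber, a rise of 1.22 ± 0.18 (adjusted p = 9.3e-05). The chemokine gene Ccl4, the growth factor gene Csf1, the cathepsin gene Ctsl and the tetraspanin gene Cd9 rose by 0.95, 0.50, 0.49 and 0.46 on the log2 scale. In HAMSAB over control averaged over genotypes, 4 of 17 rose (Itgax, Axl, Ccl4 and Cd63) and 0 fell. There 2.18% of all genes were called higher and 2.25% lower, and the list's median was 0.17 against 0.00. Leaving out 1 library at a time gave 2 to 8 of 17 over zero fiber and 2 to 5 of 17 over control. Over zero fiber, the count was 2 of 17 without zero_fiber_WT_M replicate 2 and 4 of 17 without the 2 doubted libraries. Over control, it was 2 of 17 with the title series term, with the length trend removed, and without any 1 of HAMSAB_AD_F replicates 1 and 4, HAMSAB_AD_M replicate 3, HAMSAB_WT_F replicates 1 and 4, HAMSAB_WT_M replicate 3, control_AD_F replicate 2, control_WT_F replicate 2 and control_WT_M replicate 3. Within genotypes, HAMSAB over zero fiber called 1 of 17 in AD mice (Axl), where 0.182% of all genes were called, and 4 of 17 in WT mice (Itgax, Axl, Ccl4 and Csf1), where 1.34% were. Leaving out 1 library at a time gave 0 to 3 of 17 in AD mice and 1 to 6 of 17 in WT mice. In AD over WT averaged over diets, 0 of 17 were called by edgeR, DESeq2 or voom, 1 had an unadjusted p under 0.05 by each (7.0% of all genes by edgeR), and the median was 0.04. Beside these counts stand markers of other cells. The summed level of 5 red blood cell markers, 0 of 5 at 0, was 1.70 to 157.4 CPM (mean 47.96) on HAMSAB, 21.7 to 684.3 CPM (mean 216.1) with zero fiber and 1.97 to 136.4 CPM (mean 42.1) on control. The highest 2 sums, 664.0 and 684.3 CPM, were those of zero_fiber_WT_M replicates 1 and 2. The sum of the 9 perivascular macrophage markers averaged 219.4 CPM on HAMSAB, 287.2 CPM with zero fiber and 266.2 CPM on control. The part of these markers in the list's change was not tested.

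**Figure D4:**
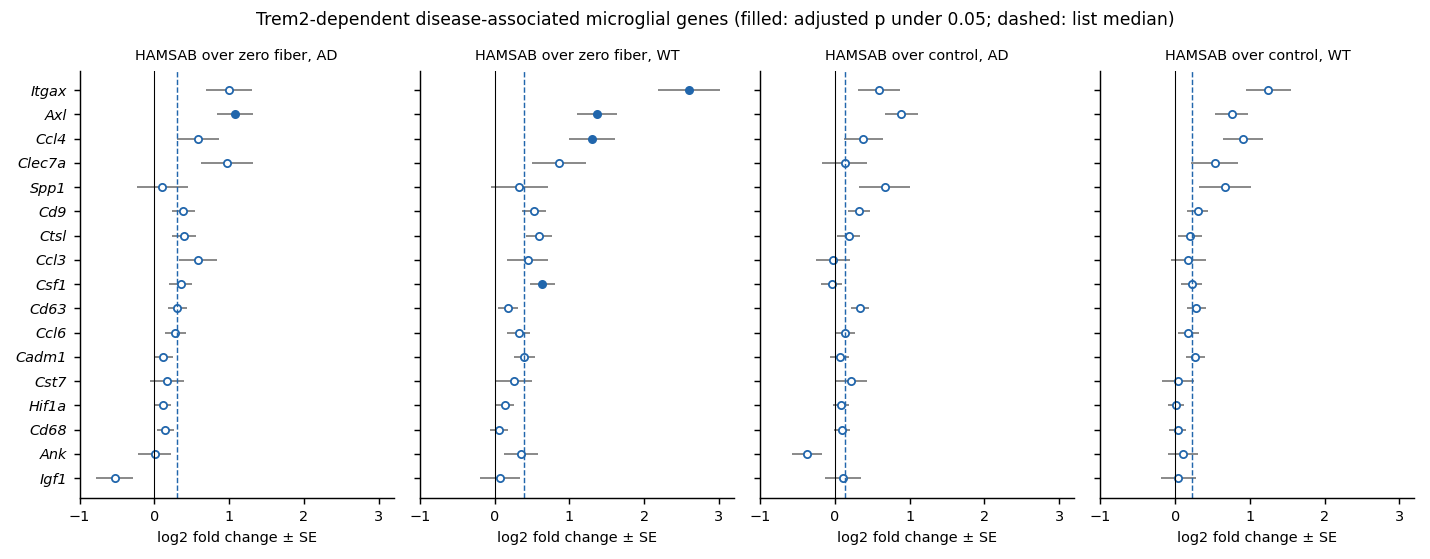
Log2 fold changes of 17 Trem2-dependent disease-associated genes on HAMSAB over zero fiber and over control, in AD and WT mice, with lines for the SE, filled points for an adjusted p under 0.05 and a dashed line at the list's median. The medians are 0.31 and 0.40 over zero fiber and 0.13 and 0.22 over control, for AD and WT in each pair.

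The 7 genes also varied between libraries of 1 group, and 2 of their 21 pairs varied together. Over 45 libraries, each taken as its deviation from its group mean, Trem2 and the opposing phosphatase Inpp5d ran against each other (Pearson r = -0.645, Spearman rho = -0.660, permutation adjusted p = 0.00042 and 0.00084 over 21 pairs). The r was -0.612 without the 2 libraries farthest out, -0.595 in 19 libraries of the lower title series and -0.513 in 20 of the higher, and -0.542 with the length trend removed. The adaptors Tyrobp and Hcst rose and fell together (r = 0.540, rho = 0.567, permutation adjusted p = 0.00735 and 0.00661; r = 0.545 without the 2 farthest). Within the title series this r was 0.173 in the lower and 0.664 in the higher, and neither these values nor their difference was tested. With the length trend removed it was 0.447 and no longer passed the threshold (rho = 0.430, permutation adjusted p = 0.128 and 0.127). With all 46 libraries it was 0.395 (rho = 0.467, permutation adjusted p = 0.0546 and 0.0447). Trem2 and its adaptor Tyrobp gave r = 0.438, which missed the threshold (rho = 0.371, permutation adjusted p = 0.0951 and 0.227). With all 46 libraries, and so with the library of 52114 counts, this r was 0.598 and passed the threshold. The rho did not pass it there (rho = 0.4035, permutation adjusted p = 0.0301 for r and 0.1385 for rho). Trem2 and Apoe gave r = 0.305 (rho = 0.217, permutation adjusted p = 0.353 and 0.452). Tyrobp also rose with the summed level of the 12 microglial markers (r = 0.694, rho = 0.705, permutation adjusted p = 0.00231 for both over 77 relations; r = 0.691 without the 2 farthest).

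**Figure D5:**
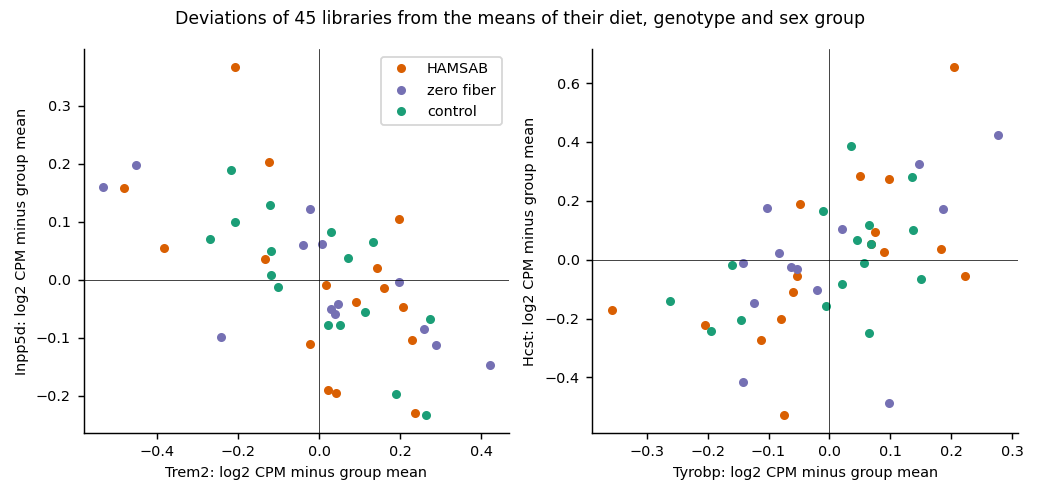
Deviations of log2 CPM from the mean of each diet, genotype and sex group in 45 libraries, for Trem2 against Inpp5d (left) and Tyrobp against Hcst (right), coloured by diet. Trem2 and Inpp5d slope down (r = -0.645) and Tyrobp and Hcst slope up (r = 0.540), with points of every diet along both.

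By Spearman's rho of the level over 45 libraries, among 7007 genes compared, the genes most like Trem2 were Pycard (rho = 0.712), Npc2 (0.690), Polr1c (0.685), Emc7 (0.619) and Arpc1b (0.619). Tyrobp ranked 218 in likeness to Trem2, and Inpp5d ranked 7000. The genes most like Tyrobp were Syngr1 (0.783), Fis1 (0.763), Atraid (0.763), Ssr4 (0.756) and Psmb6 (0.753). The genes most like Apoe were Ctsa (0.570), Errfi1 (0.524), Dap3 (0.512), Eif3k (0.498) and Rps19 (0.490). Libraries share depth and composition, so these values only describe.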

How the data were processed

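The authors deposited raw read counts per gene for 46 microglial libraries, without scaling. Per the submitters' processing notes, the tools were STAR 2.5.2b and featureCounts 1.5.2, on GRCm38 (mm10). Per the labels' protocols, RNA was taken with an RNeasy Micro kit run on a QIAcube. How strand and reads matching several genes were handled is not given in the sources used here.

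Libraries were grouped by diet, genotype and sex (12 groups, 4 libraries each, 2 for zero_fiber_WT_M), and replicate numbers follow accession order. One edgeR 4.0.16 fit (R 4.3.3, TMM factors, filterByExpr, robust quasi-likelihood F test) with 12 group means gave every comparison, each averaging over sex, or over diet for the sex comparisons. P-values were adjusted by Benjamini-Hochberg over 12121 genes. There were 16 comparisons, and 3 averages of the diets over both genotypes were added after the data were seen. CPM uses TMM-scaled library sizes, and log2 CPM a prior count of 2. Correlations used 45 libraries of at least 500000 counts and 100000 permutations within groups. From the lists, the called genes of a comparison were named, at most 8 by p. For likeness, the 5 of highest rho were named among tested genes whose mean log2 CPM reached 4, other than predicted or unnamed ones. DESeq2 1.42.0 and limma 3.58.1 (voom) were alternatives. In simulated data, AD over WT over the diets (11694 genes) recovered 100 of 100 genes changed by 1 on the log2 scale. It also recovered 100 of 100 changed by 2, with 13 false calls. Changes smaller than 1 were not simulated, and the pathway genes followed by name all differed by less than that in AD over WT. The recovery of differences of their size was therefore not tested. The genes and lists were chosen with earlier results of these data known.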

Additional observations from a re-analysis of the deposited data

Results flagged for a closer look

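Of 42 sets examined (each of the 7 genes in each of the 6 diet and genotype groups), 2 held a library far from the rest, where chance gives about 1 in 20. Apoe in zero-fiber AD mice stood at 4772 CPM in zero_fiber_AD_M replicate 4, from 7715 counts, against 1236 to 1748 CPM in the other 7 libraries, so that the gap was 0.743 of the range (critical value 0.526). In that library 2 of 17 tested Trem2-dependent disease-associated genes were the highest of the 8 libraries, and 13.9% of all tested genes were highest there. Without it, Apoe in AD over WT on zero fiber was 0.08 on the log2 scale, against 0.39 with it, and zero fiber over control in AD mice was -0.17, against 0.15. Without it, Apoe in F over M of AD mice was 0.00118 on the log2 scale, against -0.21 with it. Inpp5d in control WT mice stood at 591.2 CPM in control_WT_M replicate 3, against 699.2 to 803.0 CPM in the other 7, a gap of 0.548 of the range.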

How the results depend on the processing

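The other settings were the DESeq2 test, voom with quality weights, DESeq2 size factors and a title series term (without HAMSAB_AD_F replicate 4, in neither series). Further ones were all genes kept whatever their counts, only the libraries compared, no robust estimation, the length trend removed, and without the 2 doubted libraries. The pairs were also taken over all 46 libraries. Their count stayed there, but by r Trem2 with Tyrobp passed and Tyrobp with Hcst did not. Across all these settings, 171 counts of genes called or pairs correlated stayed as they were and 2 moved. With the title series term, HAMSAB over control averaged over genotypes called 2 of the 7 (Tyrobp at 0.24 beside Syk), and with the length trend removed 1 pair was correlated, Trem2 with Inpp5d, and Tyrobp with Hcst was not. Leaving out 1 library at a time called 0 to 1 of the 7 for HAMSAB over control in WT mice and 0 to 1 for HAMSAB over zero fiber averaged over genotypes. Syk in HAMSAB over control averaged over genotypes was called in 46 of 46 such fits (-0.34 to -0.29) and in 9 of 9 other settings (-0.33 to -0.29). A change of sign was counted where the reported value exceeded its SE. Tyrobp in HAMSAB over zero fiber, AD minus WT, was -0.0232 with the length trend removed, against 0.16, and Apoe in F over M of AD mice was -0.31 to 0.00118 over the fits that left out 1 library. The cause was not tested. A fit with only the libraries compared was not run where all 46 were compared. Counts of all genes called moved more: HAMSAB over control averaged over genotypes had 537, 368 with the title series term and 274 to 856 when 1 library was left out. The fit without robust estimation and the averages over genotypes were chosen after seeing the data. No paired analysis was possible because replicate numbers follow accession order and the numbers in the titles are each used once.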
